A study of Mus musculus with 12 samples.

Results

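AU-rich element binding proteins attach to short stretches of A and U in the 3′ untranslated region (3′UTR) of an mRNA and set how long that mRNA lasts. The 9 genes described here were chosen by symbol in the 27998 genes of the single-cell tables and by the matching Entrez identifier in the 40814 genes of a neurosphere count table. All 9 were present in both and passed the filter on low counts in neurospheres. The choice used a measured value, a higher level of Zfp36l1 in Larp7 knockout neurospheres, so the neurosphere values of the members are a description and carry no test. 5 of the members promote decay: Zfp36 (tristetraprolin), Zfp36l1 and Zfp36l2 are zinc finger proteins that bring the CCR4-NOT deadenylase to the mRNA, Khsrp (KSRP) is a KH-domain protein that recruits decay enzymes, and Hnrnpd (AUF1) is an hnRNP whose isoforms mostly destabilize but can also protect. The other 4 are Hu proteins, which hold AU-rich mRNAs in a stable state: Elavl1 (HuR) is found in most cell types, while Elavl2, Elavl3 and Elavl4 (HuB, HuC and HuD) are mainly neuronal.

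The study deleted Larp7, whose protein stabilizes the 7SK RNA that holds the elongation factor P-TEFb inactive, and followed the formation of the dentate gyrus. In this region radial glia-like cells (RGL) give rise to neuronal intermediate progenitor cells (nIPC), which give rise to neuroblasts and granule neurons. Single cells came from dentate gyri at P7 of wild-type mice, of Larp7 f/f;nestin-Cre mice and of Larp7 f/f;Emx1-Cre mice, with 1 library per genotype that held 3 to 4 gyri of littermates, so the animals behind a library cannot be told apart. Wild-type here means Larp7-floxed mice with no Cre, in which exon 9 of Larp7 is flanked by loxP sites on both alleles. Nestin-Cre acts through the whole central nervous system and in parts of kidney, stomach and lung, whereas Emx1-Cre acts in dorsal forebrain progenitors. Neurospheres were grown from P1 dentate gyrus of wild-type mice (n = 2 libraries) and Larp7 f/f;Emx1-Cre mice (n = 3 libraries, called knockout), taken apart and kept for 2 days on Matrigel under differentiation conditions. Whether the libraries of a group came from separate animals is not stated, and p-values then measure only the spread between these libraries.

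All members lie on the minus strand of the mouse genome (build GRCm38), and 5 of the 9 carry in their own 3′UTR the nonamer TTATTTATT, written as DNA, the motif that Zfp36 proteins bind best. The nonamer was searched on the sense strand in the longest 3′UTR of each gene in GENCODE M21, where overlapping matches were counted separately. It occurred in 7.67% of 20388 genes with a 3′UTR. The median 3′UTR of those genes was 982 bases, which every member but Zfp36 exceeds, and length was not matched here. All 3 Zfp36 genes held 1 copy, Elavl4 held 1 copy and Elavl1 held 8 copies, while Khsrp, Hnrnpd, Elavl2 and Elavl3 held none. The sites are shown because they place several of these binding proteins among the mRNAs of the kind they bind. The nonamer is in capitals with 10 bases on each side.
Zfp36, chr7:28376951-28376979, base 589 of a 3′UTR of 774 bases: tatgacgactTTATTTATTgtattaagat
Zfp36l1, chr12:80108167-80108195, base 1404 of 1835: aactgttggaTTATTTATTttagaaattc
Zfp36l2, chr17:84184914-84184942, base 821 of 1822: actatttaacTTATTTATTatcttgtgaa
Elavl1, chr8:4285788-4285816, base 3794 of 4218, the first of its copies: gtcatgaaaaTTATTTATTtatttattta
Elavl4, chr4:110204985-110205013, base 1329 of 2610: cttgaaacacTTATTTATTtaattgcaga
In Elavl1 the letters after the capitals repeat the motif, and most of its copies overlap a neighbour, whereas in the other 4 genes the nonamer stands alone. The shorter pentamer ATTTA, which lies within the nonamer, occurred in 65.7% of genes, at a median of 1.25 per kilobase of 3′UTR. Elavl2 had the densest pentamers among the members (6.06 per kilobase) despite having no nonamer. Zfp36l1 followed with 4.9 and Elavl1 with 4.03 per kilobase. Only Khsrp, with 0.61 per kilobase, lay under the median of all genes. A match is a description of letters and was not tested for binding.

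The P7 libraries held 26689878 to 28918491 unique molecular identifiers (UMIs), and 6531 to 10997 cells passed the filter on cells (over 500 genes and under 15% mitochondrial UMIs). The wild-type library was shallower per cell (median 1782 UMIs) than the libraries labelled nestin-Cre (3644) and Emx1-Cre (3873), and held 894 erythrocytes against 12 and 13. Pairs of libraries shared 11 to 23 cell barcodes. The titles and the genotype entries of the 2 mutant libraries name opposite Cre drivers; the titles were followed, and Larp7 levels cannot settle it, since both libraries were low in the same neural populations. Larp7 lay at 52.8 CPM (counts scaled to the same total in every library or cell class) in wild-type RGL-like cells and at 11.4 and 9.74 CPM in those of the mutant libraries, at 92.9 against 15.6 and 14.1 CPM in nIPC-like cells, and at 56.6, 58.0 and 54.1 CPM in endothelial cells of cluster 8. With a further endothelial cluster that only the Emx1-Cre library held, the endothelial value of that library was 38.3 CPM. Microglia were also lower in the mutant libraries, at 62.3 against 34.9 and 37.8 CPM. In neurospheres, Larp7 was at 42.8 and 35.0 CPM in wild-type and 4.17, 6.35 and 4.39 CPM in knockout libraries (log2 fold change −2.97 ± 0.21 (SE), adjusted p = 0.0198, edgeR's quasi-likelihood test with Benjamini-Hochberg adjustment).

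Cells were clustered without the 9 members, and clusters took a name from marker lists. The class named RGL-like joined cluster 16, in which 9 of its 12 markers were raised, and cluster 18, with 10 of 12. Neuroblast-like cells joined clusters 1 and 3. Clusters 11, 15 and 21 kept their numbers, since their markers did not meet the rule: cluster 11 was led by Egfr, Olig2 and Olig1, cluster 15 by Gal, Cpne9 and Bcl11b (with 9 raised neuroblast markers but more pyramidal neuron markers among its leading genes), and cluster 21 by Gdf10, Lpar1 and Sox1. UMIs were summed over the cells of a class and are given as CPM of that class. These UMIs count molecules from the 3′ end of mRNAs and need no correction for gene length. With 1 library per genotype no test between genotypes was possible, and the 95% intervals given (exact Poisson for levels, exact conditional for ratios, exact binomial for shares) cover counting error only.

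Across cell types the Zfp36 family and the neuronal Hu genes divided the dentate lineage between them. Zfp36l1, which restrains mRNAs of cell cycle and differentiation regulators, was high in RGL-like cells (620, 1108 and 1004 CPM in the wild-type, nestin-Cre and Emx1-Cre libraries). It was lower in nIPC-like cells (191, 144 and 200 CPM) and lowest along the lineage in neuroblast-like cells (17.4, 12.0 and 14.2 CPM). The order was the same in each library and went far beyond the counting intervals, which in the wild-type library ran from 591 to 650 CPM in RGL-like cells and from 14.2 to 21.2 CPM in neuroblast-like cells. Cells other than the neuronal line held intermediate levels: astrocytes 479, 619 and 644 CPM, oligodendrocyte precursors (OPC) 322, 319 and 343 CPM, and microglia between 380 and 416 CPM. After each cell was thinned to 1500 UMIs, 55.9%, 75.4% and 70.7% of RGL-like cells had a Zfp36l1 UMI (79.5%, 91.2% and 89.6% before thinning), against 2.32%, 1.96% and 1.43% of neuroblast-like cells (5.13%, 4.27% and 5.40% before thinning). The median depth before thinning was 3138 to 3705 UMIs in the first class and 3325 to 3867 UMIs in the second. Wild-type erythrocytes held 347 CPM of Zfp36l1 (399 UMIs), about the wild-type level of OPC, and the part of stray RNA in either was not tested. The level in neuroblast-like cells lay far below that of erythrocytes and was not read as expression.

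Zfp36l2, a close relative of Zfp36l1, ran in parallel at lower levels: 113, 190 and 186 CPM in RGL-like cells, 32.4, 34.5 and 47.9 CPM in nIPC-like cells and 7.08, 7.42 and 7.51 CPM in neuroblast-like cells. Zfp36, the immediate-early member of the family, differed from both in where it was highest. It peaked in microglia of cluster 14 (734, 508 and 575 CPM) and in perivascular macrophages (357, 475 and 280 CPM). Astrocytes held 169, 121 and 176 CPM and RGL-like cells 33.5, 80.0 and 72.4 CPM, while nIPC-like cells had 15, 15 and 19 UMIs in all (5.59, 5.45 and 5.36 CPM). OPC held few Zfp36 UMIs (5, 15 and 7). Cluster 11 held 115, 108 and 113 CPM of Zfp36 in the 3 libraries, a spread within the counting intervals.

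Elavl2, Elavl3 and Elavl4 were all present in nIPC-like cells and differed in how their levels ran from there. Elavl2 was at 457, 619 and 578 CPM in nIPC-like cells, stayed at 417, 425 and 433 CPM in neuroblast-like cells and lay at 189, 160 and 169 CPM in cluster 15. Elavl3 was at 263, 350 and 295 CPM in nIPC-like cells, at 538, 531 and 480 CPM in neuroblast cluster 1, at 729, 669 and 646 CPM in neuroblast cluster 3, and at 776, 787 and 760 CPM in cluster 15. Elavl4 was at 358, 346 and 385 CPM in nIPC-like cells and at 417, 275 and 353 CPM in neuroblast cluster 1, then dropped to 197, 103 and 121 CPM in cluster 3 and to 50.7, 27.8 and 25.8 CPM in cluster 15. Of these 4 populations, cluster 15 therefore had the least Elavl2 and Elavl4 and the most Elavl3 in each of the 3 libraries. In RGL-like cells Elavl2 lay at 49.1, 79.7 and 65.2 CPM, Elavl3 at 46.2, 90.8 and 75.4 CPM and Elavl4 at 44.4, 51.4 and 40.5 CPM. Leptomeningeal stromal cells, which are not neural, held 41.4, 34.0 and 40.4 CPM of Elavl2, 38.99, 101.9 and 36.9 CPM of Elavl3 and 23.2, 29.7 and 7.02 CPM of Elavl4. RGL-like cells thus lay above these cells in most comparisons and below them for Elavl3 in the nestin-Cre library, while wild-type erythrocytes held more of all 3 (219, 250 and 175 CPM). The RGL-like values came more from cluster 16 for Elavl2 (89.3, 189 and 134 CPM, against 23.8, 45.6 and 35.4 CPM in cluster 18). How much of them is stray RNA was not tested. At 1500 UMIs per cell, 6.54%, 12.6% and 9.80% of RGL-like cells had an Elavl3 UMI, beside 12.2%, 7.41% and 14.3% of leptomeningeal cells and 59.9%, 60.2% and 56.1% of neuroblast-like cells (before thinning 12.5%, 24.6% and 21.9%, then 20.2%, 19.4% and 34.3%, then 81.9%, 86.4% and 86.4%). The median depth of the leptomeningeal cells was 2076, 6793 and 11044 UMIs.

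The other 3 members were spread more evenly. Elavl1 stayed within 101.7 to 164 CPM in the 3 classes of the neuronal line in all libraries. Khsrp lay between 25.8 and 55.9 CPM in the same classes. Hnrnpd was the most abundant decay-promoting factor in nIPC-like and neuroblast-like cells, with 561, 794 and 740 CPM in nIPC-like cells and 352, 429 and 388 CPM in neuroblast-like cells, against 308, 344 and 365 CPM in RGL-like cells. The plot of levels by cell population shows these patterns side by side.

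**Figure D1:**
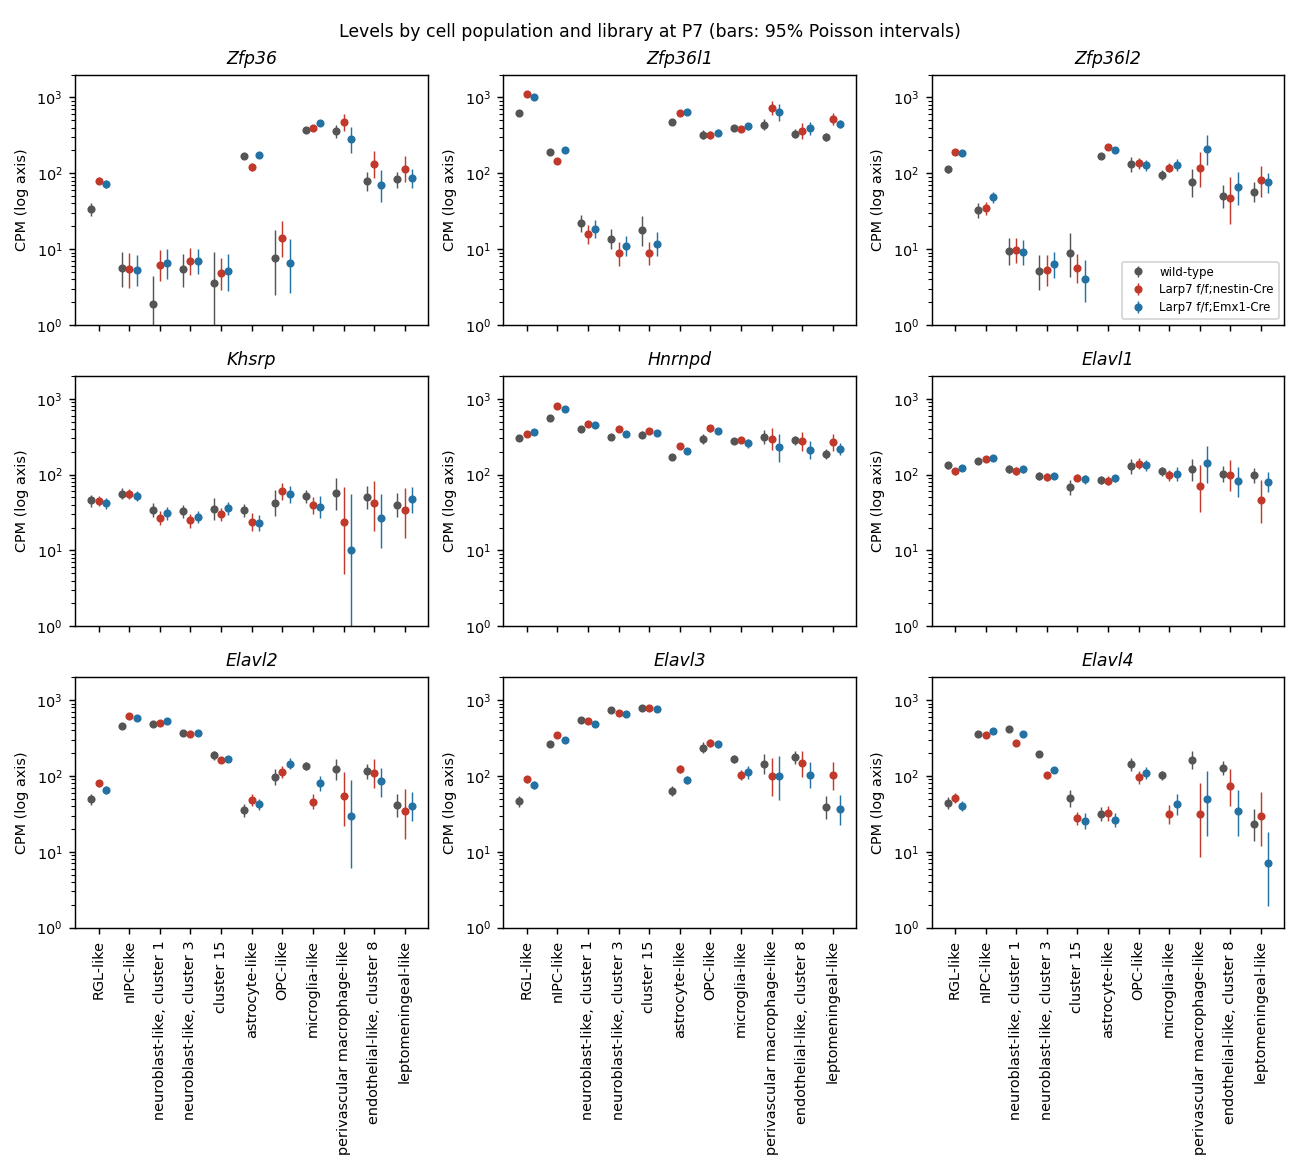
Level of each member in CPM (log axis) in 11 cell populations of the P7 dentate gyrus, with a point for each of the 3 libraries and bars for 95% exact Poisson intervals of the summed UMIs. Zfp36l1 drops from 620 to 1108 CPM in RGL-like cells to 12.0 to 17.4 CPM in neuroblast-like cells, whereas Elavl3 is highest in cluster 15 (760 to 787 CPM). Khsrp and Elavl1 vary less than Zfp36l1 along the neuronal line.

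The likeness of other genes to the members was measured as Pearson r of log2(CPM + 1) over 12 named cell classes, averaged over the 3 libraries, among 11139 genes with at least 300 UMIs. These values describe the order of classes and have no p, since the classes of a library share its depth and stray RNA. Zfp36 was most like Neat1 (r = 0.924), a nuclear long noncoding RNA, followed by Pnp (0.919) and Kctd12 (0.907). Zfp36l1 was most like Gng12 (0.891), Krcc1 (0.88) and Vamp3 (0.872). Zfp36l2 had looser partners, in Tmbim6 (0.803), Akr1b10 (0.799) and Qk (0.773), the last an RNA-binding protein of glia. Elavl2 was most like Cct2 (0.905), Sumo2 (0.899) and Cdk2ap1 (0.892), and Elavl3 was most like Stmn3 (0.943), a neuronal stathmin, Camta1 (0.919) and Gdpd1 (0.917). For Elavl4 the nearest gene of all was Elavl3 (0.911), ahead of Foxo6 (0.903) and Hsp90aa1 (0.894).

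Decay-promoting factors made up most of the members' UMIs in glia and a minority in neurons. Their share of the summed UMIs of the 9 members was 80.5%, 84.2% and 84.6% in RGL-like cells (wild-type, nestin-Cre and Emx1-Cre), with a wild-type interval of 79.2% to 81.7%. It was 40.8%, 41.2% and 42.4% in nIPC-like cells and 22.04%, 26.8% and 25.1% in neuroblast-like cells, with a wild-type interval of 21.3% to 22.8%. The order of the 3 classes was the same in each library, and no interval of 1 class reached that of another. Astrocytes (82.7%, 81.0% and 83.5%) stood beside RGL-like cells, OPC (56.9%, 60.2% and 58.4%) stood between glia and nIPC-like cells, and cluster 15 (27.1%, 28.6% and 28.4%) stood near neuroblast-like cells. Between genotypes the share was higher in both mutant libraries in RGL-like and neuroblast-like cells, by more than the counting intervals, while in nIPC-like cells the wild-type interval (39.5% to 42.1%) overlapped both others. Within RGL-like cells this held in cluster 18 (84.3%, 88.0% and 88.6%) but not in cluster 16 (74.4%, 71.5% and 74.9%). Most of the share in neurons was Hnrnpd. Without it the shares were 4.05%, 3.79% and 4.16% in neuroblast-like cells, 18.8%, 13.99% and 17.7% in nIPC-like cells, and 74.9%, 81.1% and 81.1% in RGL-like cells. Set against Elavl2 to Elavl4 alone, the Zfp36 family accounted for 84.6%, 86.1% and 87.5% of UMIs in RGL-like cells, for 17.5%, 12.3% and 16.7% in nIPC-like cells and for 2.05%, 2.10% and 2.27% in neuroblast-like cells.

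**Figure D2:**
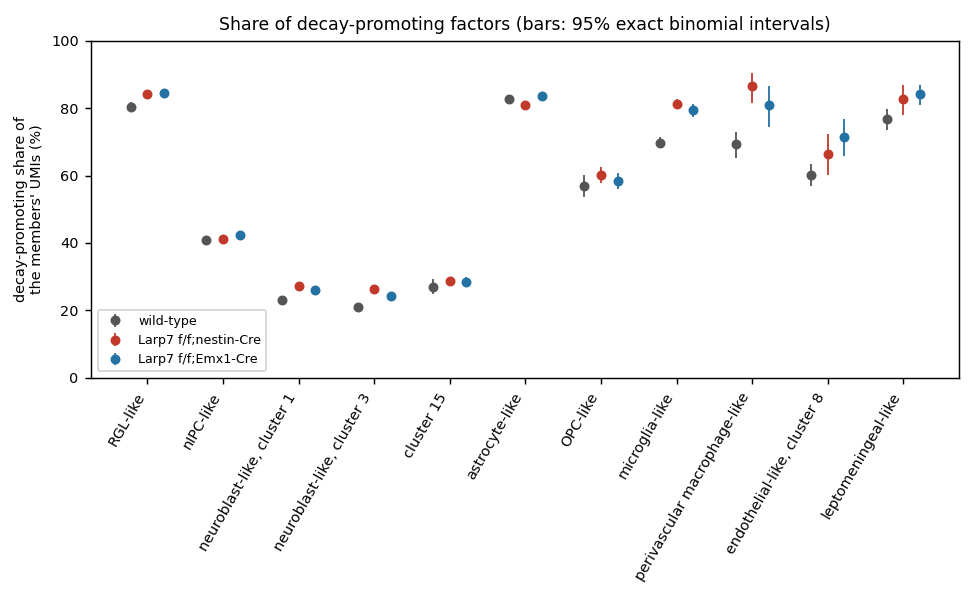
Share (%) of the 5 decay-promoting factors in the summed UMIs of the 9 members, by cell population and library, with 95% exact binomial intervals. In all 3 libraries the share is between 80.5% and 84.6% in RGL-like cells, between 40.8% and 42.4% in nIPC-like cells and at most 26.8% in neuroblast-like cells.

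In RGL-like cells the 3 Zfp36 genes were all higher in both mutant libraries than in the wild-type library. Zfp36l1 was 1.79-fold higher in the nestin-Cre library (interval 1.69 to 1.89) and 1.62-fold higher in the Emx1-Cre library (1.53 to 1.72). Zfp36 was 2.39-fold (1.89 to 3.05) and 2.16-fold (1.71 to 2.77) higher, and Zfp36l2 1.69-fold (1.48 to 1.93) and 1.65-fold (1.44 to 1.89) higher. The other decay-promoting factors stood near 1: Khsrp had ratios of 1.00 and 0.92 and Hnrnpd 1.12 and 1.19. Among stabilizing factors Elavl1 had ratios of 0.83 (0.72 to 0.96) and 0.93 (0.81 to 1.06). Elavl3 had 1.97 and 1.63 and Elavl2 1.62 and 1.33, from low levels in which the part of stray RNA was not tested. By the limit of 1.5-fold with at least 100 UMIs, 5 of 9 members were higher and none was lower in the nestin-Cre library, where 7.94% of 7823 genes were that much higher, and 4 of 9 were higher and none lower in the Emx1-Cre library, where 4.14% of 7891 genes were. Both mutant libraries were compared with the same wild-type library, so these are not independent. The median log2 ratio of all genes was 0.0536 and 0.0535 in RGL-like cells.

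The difference in Zfp36l1 was present in both clusters of RGL-like cells, which the libraries filled unequally (296, 202 and 265 cells of cluster 16 and 543, 778 and 772 cells of cluster 18). A finer clustering (Leiden resolution 2) also gave RGL-like clusters of unequal filling. An RGL-like cluster with Arc among its leading genes held 168, 524 and 417 cells, and another held 557, 337 and 499 cells. The part of this split in the ratios was not tested. In cluster 18 Zfp36l1 was at 715, 1235 and 1148 CPM, with ratios of 1.73 (1.62 to 1.85) and 1.605 (1.501 to 1.72). In cluster 16 it was at 469, 702 and 672 CPM, with ratios of 1.498 (1.33 to 1.69) and 1.43 (1.28 to 1.61). Zfp36 in cluster 16 rested on 11, 24 and 34 UMIs. Other populations varied in how far Zfp36l1 differed between libraries. It was 1.29-fold and 1.34-fold higher in astrocytes, 1.83-fold and 1.69-fold higher in cluster 21, and 1.505-fold and 1.34-fold higher in cluster 11. OPC, with ratios of 0.99 (0.83 to 1.18) and 1.06 (0.90 to 1.27), showed no difference beyond counting error, and microglia of cluster 14 had less in the mutant libraries (0.74 and 0.79). Populations in which Larp7 was less low in the mutant libraries also differed. Leptomeningeal stromal cells had ratios of 1.74 (1.39 to 2.17) and 1.49 (1.24 to 1.78) for Zfp36l1, with Larp7 at 49.96, 29.7 and 36.9 CPM, and perivascular macrophages had 1.68 (1.28 to 2.20) and 1.47 (1.07 to 1.99), with Larp7 at 31.6, 38.9 and 40.1 CPM. These Larp7 levels rest on 41, 7 and 21 UMIs in the former and on 10, 5 and 4 UMIs in the latter. In both, the counting intervals of Larp7 overlap between the libraries.

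Genes that tissue dissociation is known to induce moved with the Zfp36 family in RGL-like cells. The 15 such genes on a fixed list, among them Fos, Egr1 and Dusp1, summed to 7303 CPM in the wild-type, 10715 CPM in the nestin-Cre and 9744 CPM in the Emx1-Cre RGL-like cells. Of those with enough UMIs, 7 of 14 were at least 1.5-fold higher and none lower in the first mutant library, and 3 of 15 were higher and 1 (Hspa1a) lower in the second, beside 7.94% and 4.14% of all genes higher. Their part in the result was not tested, nor was that of the lower depth per cell of the wild-type library.

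In nIPC-like cells no member with enough UMIs differed 1.5-fold in either direction (0 of 8 in each mutant library), where 11.8% of 6641 and 6.66% of 7087 genes did. Zfp36l1 was at 0.76 of the wild-type level in the nestin-Cre library (0.66 to 0.86) and at 1.045 in the Emx1-Cre library (0.93 to 1.17), so the 2 libraries did not share a direction. Hnrnpd was higher in both, by 1.41-fold (1.32 to 1.51) and 1.32-fold (1.24 to 1.41), as was Elavl2, by 1.36-fold (1.26 to 1.46) and 1.27-fold (1.18 to 1.36). Elavl4 stood at 0.97 and 1.08, with intervals that included 1. At Leiden resolution 2 an nIPC-like cluster with Eomes among its leading genes held 386, 513 and 566 cells. Another, with Dll1 among them, held 355, 212 and 277 cells. The part of this split in the ratios of nIPC-like cells was not tested.

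In neuroblast-like cells Elavl4, which supports neuronal maturation mRNAs, differed most among the 7 members with enough UMIs. It was at 298, 182 and 218 CPM, which is 0.61 (0.57 to 0.66) and 0.73 (0.69 to 0.79) of the wild-type level. It alone of the 7 passed the limit downwards in the nestin-Cre library, where 8.13% of 9027 genes did, and 0 of 7 passed it in the Emx1-Cre library, where 3.47% of 9210 genes did. The ratios were 0.66 and 0.85 in neuroblast cluster 1 and 0.52 and 0.62 in neuroblast cluster 3, and they were 0.55 and 0.51 in the unnamed cluster 15. The paralogs Elavl2 (1.02 and 1.04) and Elavl3 (0.94 and 0.90) stayed near the wild-type level. The Zfp36 family was scarce here, with 79 to 104 UMIs of Zfp36l1 per library over 1717 to 1814 cells. The libraries filled the neuroblast-like clusters of Leiden resolution 2 unequally. Those led by Adamts18 and by Crym held 634, 225 and 443 cells and 153, 588 and 486 cells. Those led by Scg2 and by Tac2 held 320, 191 and 214 cells and 540, 531 and 559 cells. Cluster 15 held 402, 1078 and 780 cells. The part of this filling in the Elavl4 ratios was not tested.

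**Figure D3:**
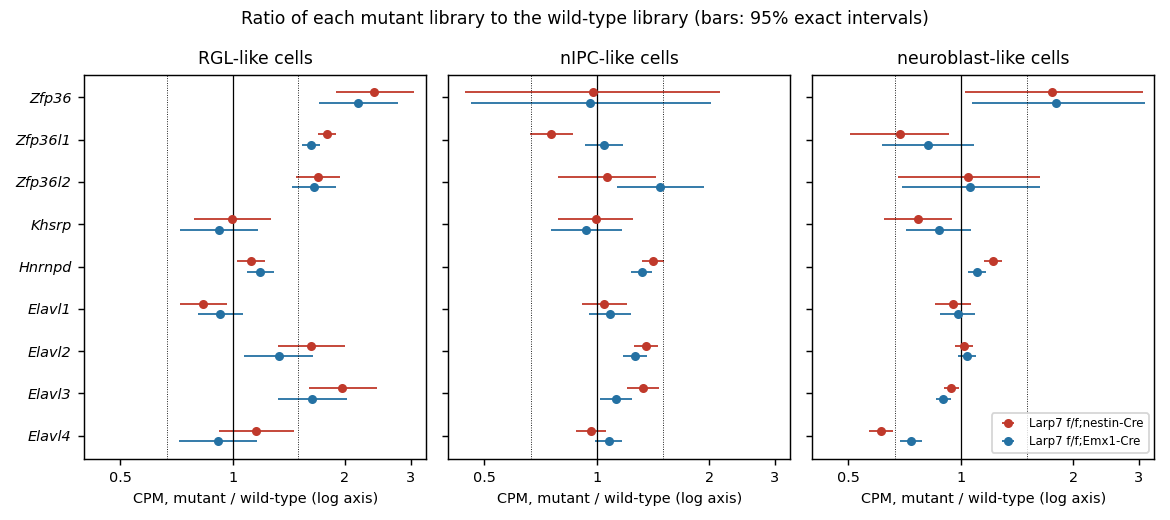
Ratio of CPM in each mutant library to the wild-type library (log axis) for the 9 members in the 3 classes of the neuronal line, with 95% exact intervals for counting error and dotted lines at 1.5-fold in each direction. The 3 Zfp36 genes lie between 1.62 and 2.39 in RGL-like cells, and Elavl4 lies at 0.61 and 0.73 in neuroblast-like cells.

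Neurospheres gave the only replicated measurement, as counts per gene in 5 libraries of 59821311 to 62474602 counts. Zfp36l1 was at 114 and 125 CPM in the wild-type libraries and at 184, 180 and 179 CPM in the knockout libraries, a log2 fold change of 0.60 ± 0.06 (SE). All knockout libraries lay above both wild-type libraries. Zfp36l2 was at 84.3 and 84.5 CPM against 115, 112 and 110 CPM (0.41 ± 0.06). Zfp36 was scarce, at 7.51 and 5.81 CPM against 10.4, 11.7 and 17.3 CPM (0.98 ± 0.25), with the third knockout library well above the rest. Each of the 3 was thus higher in every knockout library. These values include the one by which the members were chosen.

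The remaining members differed less. Khsrp was at 199.5 and 180 CPM against 214, 220 and 203 CPM (0.16 ± 0.07), Hnrnpd at 327 and 275 CPM against 369, 361 and 336 CPM (0.24 ± 0.09), and Elavl1 at 129 and 131 CPM against 146, 145 and 139 CPM (0.14 ± 0.05). These groups did not overlap either, although for Khsrp the closest libraries were only a few CPM apart. Elavl2 was at 21.96 and 25.1 CPM against 27.8, 27.8 and 24.6 CPM (0.18 ± 0.11), and its groups overlapped. Elavl3 (47.5 and 64.4 against 50.005, 57.3 and 51.6 CPM, −0.08 ± 0.14) and Elavl4 (36.4 and 58.3 against 41.2, 41.6 and 36.3 CPM, −0.25 ± 0.19) overlapped as well, with the second wild-type library highest for both. Without that library their log2 fold changes turned to 0.16 and 0.13. In all, 6 of 9 members had every knockout library above every wild-type library, as had 21.3% of 17753 genes. None of the 9 was among the 0.0338% of genes (6 of 17753) past an adjusted p of 0.05 by edgeR, while 3 of 9, the Zfp36 genes, were among the 11.3% of 15338 genes past it by DESeq2. The choice of members rests on the same contrast, and nothing is read from these counts.

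**Figure D4:**
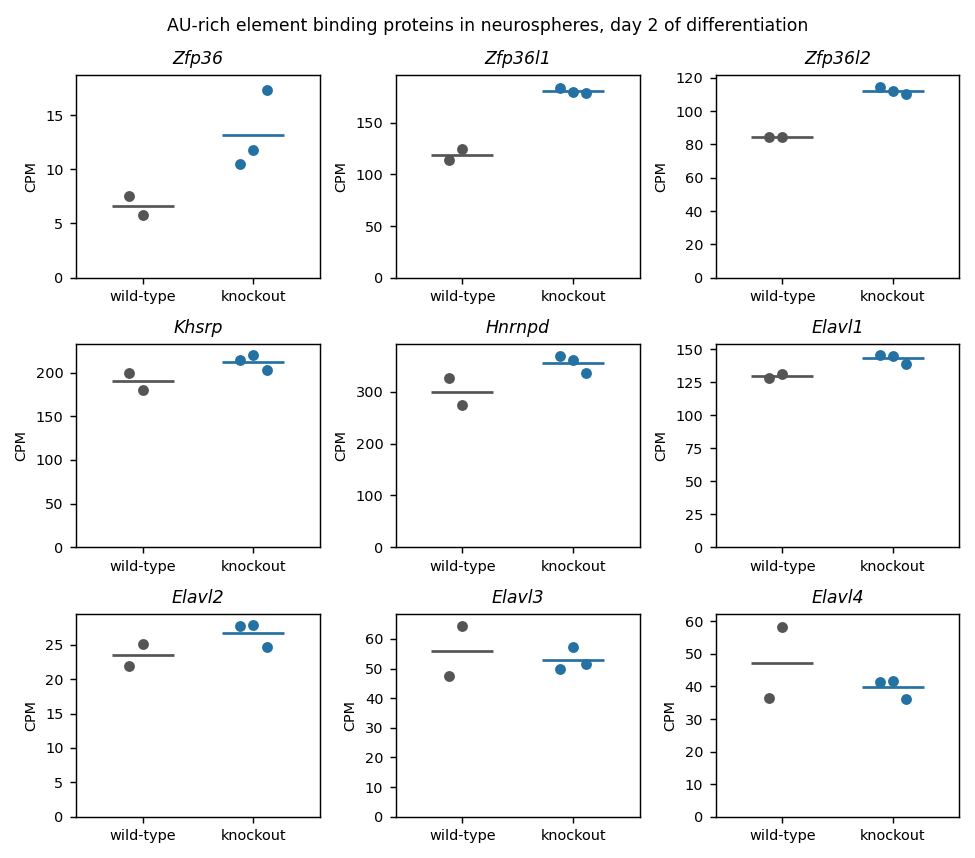
Level of each member in CPM in the 2 wild-type and 3 knockout neurosphere libraries at day 2 of differentiation, with a point per library and bars at the group means. Zfp36l1 lies at 114 and 125 CPM in wild-type and at 179 to 184 CPM in knockout libraries, while the groups overlap for Elavl2, Elavl3 and Elavl4.

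Per kilobase of exon, the neurospheres held most Khsrp (47.5 CPM per kilobase in wild-type and 53.1 in knockout libraries, group means), Zfp36l1 (40.0 and 60.6) and Hnrnpd (38.2 and 45.1), then Zfp36l2 (23.9 and 31.7) and Elavl1 (20.1 and 22.2). The neuronal Hu genes and Zfp36 lay lower, with Elavl3 at 10.9 and 10.3, Elavl4 at 7.53 and 6.32, Zfp36 at 3.77 and 7.45 and Elavl2 at 0.964 and 1.10 CPM per kilobase. Zfp36l1 stood between Khsrp and Hnrnpd in wild-type and above both in knockout libraries. Decay-promoting factors made up 81.5% and 77.5% of the members' level per kilobase in wild-type and 83.4%, 82.8% and 83.5% in knockout libraries (79.5% ± 2.80 (SD, n = 2) and 83.2% ± 0.373 (SD, n = 3)). The groups did not overlap, but the first wild-type library lay closer to the knockout libraries than to the other wild-type library, and the difference of 3.73 points was 5.71 without the first and 1.75 without the second wild-type library.

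The cultures also differed in markers of cell types, which stand here because Zfp36l1 is itself unequal between those types. The 12 astrocyte markers summed to 4369 to 5295 CPM in wild-type and 2517 to 3521 CPM in knockout libraries, and 2 of 12 had a positive log2 fold change. The 10 RGL markers that passed the filter (of 12) summed to 1295 to 1369 CPM and 1523 to 1582 CPM, and the 6 neuroblast markers that passed (of 13) to 890 to 1276 CPM and 902 to 1048 CPM. The 10 OPC markers summed to 7130 to 7390 CPM and 7338 to 8319 CPM, with a positive log2 fold change in 8 and a median of 0.70. The 6 mature oligodendrocyte markers that passed (of 8) summed to 147 to 199 CPM and 217 to 334 CPM, with a positive log2 fold change in all 6 and a median of 0.87. No marker of these lists passed the test by edgeR, and defining markers of RGL and nIPC were scarce in every library, with Hopx at 1.28 to 3.05 CPM and Eomes at 0.243 to 0.597 CPM. In cultures, fewer cells of a type and less RNA per cell cannot be told apart. The part of these differences in the values of the members was not tested.

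The machinery that the decay-promoting members call on had median differences close to 0 between the groups. In neurospheres the median log2 fold change was 0.06 over 16 CCR4-NOT and other deadenylase genes, 0.08 over 9 decapping and 5′ decay genes, 0.05 over 14 exosome and SKI genes, 0.05 over 13 genes that regulate the members (p38, MK2 and 14-3-3 proteins among them), and 0.03 over 9 other AU-rich element binding proteins. Across these lists no gene passed an adjusted p of 0.05 by edgeR, and DESeq2 called 1 higher and none lower, 1 and none, 2 and 1, none and none, and 1 and 2 in the same order, beside 11.3% of all genes. The nearest to the threshold of edgeR, named after their values were seen, were Tia1 and Tial1, which bind AU-rich mRNAs and repress their translation: Tia1 was at 247 and 300.3 CPM against 157, 175 and 170 CPM (log2 fold change −0.71 ± 0.10, adjusted p = 0.0857) and Tial1 at 145 and 160.5 CPM against 121, 122 and 112 CPM (−0.37 ± 0.07, adjusted p = 0.0952).

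In the P7 cells some genes of the same lists differed 1.5-fold, and those named here were chosen after their values were seen. Tob2, an adaptor between RNA-binding proteins and the deadenylase, was at 56.8 CPM in wild-type RGL-like cells and at 115.5 and 96.7 CPM in the mutant libraries, and at 32.5, 65.9 and 63.1 CPM in neuroblast-like cells. In neurospheres it was level, at 22.1 and 21.3 CPM against 23.8, 21.1 and 22.7 CPM. Dis3, the exosome nuclease, was at 14.6, 31.8 and 27.7 CPM in RGL-like cells, from 40, 120 and 111 UMIs. Hnrnpdl, the paralog of Hnrnpd, was at 370, 625 and 583 CPM in neuroblast-like cells. Other genes passed the limit in 1 class of 1 library, such as Exosc4, an exosome subunit, at 83.5 and 53.8 CPM in wild-type and nestin-Cre nIPC-like cells and Mapk11, a p38 kinase, at 32.8 and 13.6 CPM in neuroblast-like cells of the same libraries. Of the CCR4-NOT list, 2 of 14 genes (Tob2 and Pan3) were at least 1.5-fold higher in RGL-like cells of either mutant library and none was lower, beside 7.94% and 4.14% of all genes higher. The regulators of the members held none past the limit in RGL-like or nIPC-like cells taken whole. In cluster 16 alone 1 of 10 passed it in the nestin-Cre library, where 7.5% of all genes were that much higher. It was Mapkapk2 (MK2), at 46.05 CPM in wild-type and 94.3 CPM in nestin-Cre cells, from 49 and 85 UMIs.

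The mRNAs known for AU-rich elements are the usual targets of the members, and many of them were higher in the mutant RGL-like cells. Of the 44 genes on the list, 15 of 25 with enough UMIs were at least 1.5-fold higher in the nestin-Cre library and 10 of 27 in the Emx1-Cre library, and none was lower in either, beside 7.94% and 4.14% of all genes higher, with median log2 ratios of 0.67 and 0.55. The counts were 11 of 25 and 8 of 24 in cluster 18, and 5 of 17 and 2 of 19 in cluster 16. Gadd45b, a stress-induced growth arrest gene, was at 36.4, 86.1 and 75.4 CPM. Bhlhe40 was at 64.4, 129 and 122 CPM and Plk2, a stress-induced kinase, at 22.6, 50.9 and 49.96 CPM. Each of these 3, named after their values were seen, was about 2-fold higher in both mutant libraries. Btg2, at 664 CPM in wild-type and 1137 CPM in nestin-Cre cells, was after Fos the most abundant of the list past the limit there. The list shares 10 genes with the 15 dissociation response genes. Of the 34 that are not shared, 8 of 16 and 7 of 17 were at least 1.5-fold higher, and their summed level was 1519 CPM in wild-type, 1984 CPM in nestin-Cre and 1940 CPM in Emx1-Cre cells. The dissociation list is short, so the 34 can still hold genes of that response, and their part was not tested. In nIPC-like cells 1 was higher and 2 lower of 18 in the nestin-Cre library, and 2 were higher and none lower of 19 in the Emx1-Cre library, beside 11.8% and 6.66% of all genes in either direction. In neuroblast-like cells 5 were higher and 2 lower of 23 in the nestin-Cre library, and 10 were higher and none lower of 26 in the Emx1-Cre library, beside 9.66% and 6.96% of all genes higher. The summed level there was 2359, 2156 and 3317 CPM.

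In neurospheres 36 of the 44 AU-rich mRNAs passed the filter on low counts, of which 29 had a positive log2 fold change, with a median of 0.38 beside 0.006 over all genes tested. None passed the test by edgeR, and DESeq2 called 17 higher and 3 lower, beside 11.3% of all genes. Without the shared dissociation genes, 26 were tested with a median of 0.44, and DESeq2 called 13 higher and 1 lower. Myc was at 112 and 96.1 CPM in wild-type and 150, 171 and 157 CPM in knockout libraries (log2 fold change 0.61 ± 0.09, adjusted p = 0.0933 by edgeR and 6.51e-06 by DESeq2). Ptgs2, the prostaglandin synthase that is a textbook target of Zfp36, was at 2.34 and 1.58 CPM against 4.59, 5.57 and 5.06 CPM (1.37 ± 0.24, adjusted p = 0.0933 by edgeR and 6.84e-05 by DESeq2). Both genes kept their groups apart. Fosb moved the other way, at 40.9 and 58.4 CPM against 12.5, 7.79 and 13.2 CPM (−2.15 ± 0.25, adjusted p = 0.0749 by edgeR and 8.02e-14 by DESeq2), as did Fos at 151 and 174 CPM against 111, 68.4 and 94.5 CPM (−0.83 ± 0.19, adjusted p = 0.1098 by edgeR and 0.00107 by DESeq2). These 4 genes were named after their values were seen.

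Genes with the nonamer in the 3′UTR had nearly the same median as those without it. Among genes whose mean log2 CPM over the neurosphere libraries reached 1, the 1011 with the nonamer had a median log2 fold change of −0.018, and the 10740 without it −0.00037. Since genes with the nonamer have longer 3′UTRs (median 2529 against 1221 bases), they were also set beside genes of like length. In the longest class the medians were −0.027 over 620 genes with the nonamer and −0.012 over 3295 without. DESeq2 called 6.63% of genes with the nonamer higher and 8.01% lower, against 5.74% and 6.82% of those without, and edgeR called 0 of 1011 and 5 of 10740.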

How the data were processed

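The authors deposited whole-number counts of 2 kinds. The P7 single-cell counts are UMIs per gene and cell that the authors made with Cell Ranger, whose version differs between the matrix headers and the methods. The neurosphere counts are reads per gene. For their alignment the paper names Minimap2 and the Ensembl transcriptome, whereas the sample records of the series list featureCounts and mm10 and no Minimap2. Which of these made the counts was not settled. The treatment of reads shared by paralogs, the use of strand and the test are not given in the sources used here. In that count matrix 5 columns were left aside, since their names match no sample. Of 40814 Entrez identifiers, 39373 were given a symbol. ATAC-seq and CUT&Tag samples were not analysed here.

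The members and all gene lists were chosen with earlier results of these data known. Neurosphere counts were tested with edgeR 4.0.16 (R 4.3.3): TMM normalization, filterByExpr, the quasi-likelihood test and Benjamini-Hochberg adjustment over 17753 genes, with a threshold of 0.05. The biological coefficient of variation was 19.4%, and 3846 genes had an unadjusted p under 0.05. No replicate pair agreed within counting error. DESeq2 1.42.0 was an alternative. Simulated data were used to check the fit.

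Cells were scaled to 10000 UMIs each, 270 genes (cell cycle genes, genes correlated with them, Larp7 and the members) were removed, and 2000 variable genes and 30 components entered Leiden clustering at resolution 1 (scanpy 1.11.5). A cluster took a name where 3 or more markers were present in 10% or more of the cells and 1.5-fold up, and where the list's mean log2 fold reached 0.5, limits chosen with the data in view. Of all cells, 39.8%, 27.4% and 21.4% stayed unnamed in the wild-type, nestin-Cre and Emx1-Cre libraries. Scrublet called 2, 272 and 407 doublets and had thus not worked in the wild-type library, so no cell was removed for it. Ratios between libraries were counted only for genes with at least 100 UMIs over both. No test between genotypes was made in single cells.

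Genes were named by this rule: all members, the 3 genes of each list with the largest change among those past the threshold whose average log2 CPM reached 1 (none passed), the 3 genes most like each of 6 members over the cell classes, Larp7, and markers or dissociation response genes that moved with a member. Other names are stated as chosen after their values were seen. 3′UTRs and their sequences came from GENCODE M21, and exon lengths from the RefSeq annotation of GRCm38.p6.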

Additional observations from a re-analysis of the deposited data

Results flagged for a closer look

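Elavl3 and Elavl4 each stood at least 1.5-fold above the wild-type level in both mutant libraries in some populations and at least 1.5-fold below it in others. With 1 library per genotype, the difference between the populations was not tested. Elavl3 was at 1.97 and 1.63 times the wild-type level in RGL-like cells (nestin-Cre and Emx1-Cre libraries), at 1.76 and 1.68 times in cluster 11, and at 0.614 and 0.665 times in microglia. Elavl4 was at 2.59 and 2.92 times the wild-type level in Cajal-Retzius cells, from 12 wild-type UMIs. It was at 0.522 and 0.617 times in neuroblast cluster 3, at 0.549 and 0.509 times in cluster 15 and at 0.307 and 0.422 times in microglia. The libraries filled finer neuroblast-like clusters and cluster 15 unequally, and the part of this in the ratios was not tested. In microglia, which are not known to use these genes, the libraries filled the 2 microglial clusters unequally, with 609, 142 and 55 cells in cluster 10 and 217, 312 and 195 cells in cluster 14.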

How the results depend on the processing

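The number of neurosphere genes past the threshold, 6 by edgeR, was 1737 by DESeq2 and 3 with no filter on low counts. Leaving out 1 library gave 0 to 1905 genes: 1905 without the first wild-type library (1050 higher and 855 lower), 1 without the first and 0 without the third knockout library. By DESeq2 the lists held 3 (other AU-rich element binding proteins), 1 (deadenylases), 1 (decapping), 3 (exosome), 20 (AU-rich mRNAs) and 6 (dissociation response) genes past it, against 0 by edgeR. Over the leave-outs they ranged from 0 to 2, 0 to 1, 0 to 1, 0 to 1, 0 to 13 and 0 to 5, and the regulators from 0 to 1, the upper values each without the first wild-type library. The causes were not tested.

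With the replicate number as a block, 0 genes passed. Same-numbered libraries deviated together by correlations of −0.005 and 0.093 over the 2 shared numbers. The deviations of the 2 wild-type libraries mirror each other, so these values cannot settle whether same-numbered libraries share an origin.

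The log2 fold change of Elavl3 ranged from −0.283 to 0.159 and that of Elavl4 from −0.554 to 0.128 over the leave-outs, and both turned positive without the second wild-type library. The difference in the share of decay-promoting factors in neurospheres ranged from 1.748 to 5.708 points over the leave-outs. Of the other neurosphere values of the members, 73 moved by less than the spread and 6 by more.

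In RGL-like cells of the nestin-Cre library 3 members, not 5, stood 1.5-fold apart after thinning to 1500 UMIs per cell, and 3 in cluster 16 alone. In nIPC-like cells of that library 1 did after thinning, and in neuroblast cluster 3 of the Emx1-Cre library 1 did. The decay-promoting share in RGL-like cells was 85.851% (nestin-Cre) and 85.536% (Emx1-Cre) after thinning, and 74.933%, 81.098% and 81.143% without Hnrnpd (wild-type first). In nIPC-like cells it was 38.233%, 38.589% and 39.628% at Leiden resolution 2, 39.619% after thinning (nestin-Cre), and 18.818%, 13.989% and 17.667% without Hnrnpd. In neuroblast-like cells without Hnrnpd it was 4.0539%, 3.7933% and 4.156%. Of the single-cell ratios under all alternatives, 311 were counted as unmoved, 31 moved by more than counting error, and 0 reversed. The 311 include 54 differences of mean log-normalized values, which were not compared with counting error. A reversal was counted only for ratios that passed the 1.5-fold limit in the main analysis. The values for single clusters and the DESeq2 calls by 3′UTR were added after seeing the data.

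Counting error is wide for Zfp36 in nIPC-like cells and OPC, with 5 to 19 UMIs per library.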
